A study of Mus musculus with 6 samples.

Results

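The Notch genes described here are 10 of the 23420 genes listed for this experiment. They were chosen by symbol and comprise 3 receptors (*Notch1*, *Notch2* and *Notch3*), 4 ligands (*Dll1*, *Dll4*, *Jag1* and *Jag2*), 2 target genes (*Hes1* and *Hey1*) and the receptor modifier *Lfng*. RNA was sequenced from whole embryonic lungs (E11.5dpc), in 3 control pools (Raptorf/+; ShhCre/+) and 3 mutant pools (Raptorf/f; ShhCre/+), each made of 3 or 4 lungs of the same genotype. Raptor (*Rptor*) is the scaffold protein of mTORC1, the kinase complex that couples growth to nutrients and energy. Both groups carried ShhCre/+, a Cre inserted at *Shh* that acts in the lung epithelium, so control lungs had also lost 1 of the 2 *Rptor* copies there, and cells outside the epithelium kept the gene in both groups. The comparison asks which transcripts differed in the lung when its epithelium lacked mTORC1.

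Notch signaling passes between touching cells. A ligand of the Delta or Jagged family on 1 cell pulls on a receptor of its neighbor, the receptor is cut by ADAM proteases and by gamma-secretase, and its intracellular part enters the nucleus, where it joins RBPJ to switch on genes such as *Hes1* and *Hey1*. HES and HEY proteins repress other genes, among them those of neuroendocrine fate. In the developing lung the pathway is known for setting the balance of secretory, ciliated and neuroendocrine cells in the airways, while *Dll4* is typical of arterial and sprouting endothelium and *Notch3* of the smooth muscle and pericytes around vessels and airways.

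Reads recovered from the deposited values numbered 20197642 to 21276090 per library. *Rptor* itself was at a normalized count (reads divided by the size factor of the library) of 2199 ± 77.0 (SD, n = 3 pools) in control and 2103 ± 69.1 (SD, n = 3) in mutant lungs, a count that covers the whole gene in all cells of the lung. The tissue carried its defining markers, with *Nkx2-1* at 2433 ± 330 in control pools (mean ± SD, n = 3). The sum of 20 epithelial markers ranged from 24764 to 28757 in control and from 21150 to 22452 in mutant pools. Of the 20, 7 were lower at an adjusted p under 0.05 and 0 higher. By mean, 16 were lower and 4 higher in mutant pools, with the largest rise for *Krt19* (log2 fold change 0.44, adjusted p = 0.0734 by limma). The sum of 15 endothelial markers ranged from 18044 to 20628 in control and from 21080 to 21777 in mutant pools, with 0 called. Of 12 mesenchymal markers, 12 had a higher mutant mean and 4 rose at an adjusted p under 0.05 (limma: *Col1a1*, *Col1a2*, *Col3a1* and *Fgf10*). The sum of the 12 ranged from 91925 to 99264 in control and from 112948 to 121149 in mutant pools. Most of that sum came from *Col1a1*, *Col1a2* and *Col3a1*, with control means of 19800, 24270 and 27391. The mesothelial marker *Wt1* rose as well, as 1 of 6 of its list (adjusted p = 0.0496). *Xist*, which female cells express, ranged from 309 to 12989 in control and from 41.9 to 466 in mutant pools and was highest in control pool 3. With its log2 value as a covariate, an alternative chosen after seeing the data, 0 members had an adjusted p under 0.05 in limma. In that fit the sign of the log2 fold change turned for *Notch3*, *Dll1*, *Jag1*, *Hey1* and *Lfng*. *Xist* itself had a lower mutant mean (log2 fold change -4.16, adjusted p = 0.164 by limma). The covariate therefore overlaps with genotype over the 6 pools, and signs from that fit are uncertain. In such bulk samples, fewer cells of a type and less RNA per cell cannot be told apart.

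Sequence upstream of the start is shown for 3 genes that bear on what follows. *Dll4* was lower in every mutant pool than in any control pool, while most endothelial markers lay the other way. *Jag1* was the ligand with the widest spread between pools. *Lfng* was the member whose upstream sequence held RBPJ letters. Each sequence is the 250 bases before the annotated start in RefSeq (GRCm38.p6), printed in the direction of the gene. They come from chr2:119325534-119325783 (plus strand), chr2:137116521-137116770 (minus strand) and chr5:140607091-140607340 (plus strand). RefSeq starts can differ from the GENCODE spans given below. The GENCODE spans of *Jag1* and *Lfng* reach into these windows. Capitals mark the core letters bound by RBPJ (TGGGAA, or TTCCCA on the other strand) and the class C site of HES and HEY factors (CACGCG, or CGCGTG on the other strand).
Dll4: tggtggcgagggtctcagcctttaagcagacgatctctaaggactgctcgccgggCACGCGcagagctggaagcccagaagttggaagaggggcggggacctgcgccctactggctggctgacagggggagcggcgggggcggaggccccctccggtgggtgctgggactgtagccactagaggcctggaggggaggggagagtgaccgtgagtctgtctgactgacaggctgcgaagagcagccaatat
Jag1: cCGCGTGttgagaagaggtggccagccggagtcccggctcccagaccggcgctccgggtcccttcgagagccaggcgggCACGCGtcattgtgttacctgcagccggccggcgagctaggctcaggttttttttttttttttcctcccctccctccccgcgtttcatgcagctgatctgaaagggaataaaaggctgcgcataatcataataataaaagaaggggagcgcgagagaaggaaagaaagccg
Lfng: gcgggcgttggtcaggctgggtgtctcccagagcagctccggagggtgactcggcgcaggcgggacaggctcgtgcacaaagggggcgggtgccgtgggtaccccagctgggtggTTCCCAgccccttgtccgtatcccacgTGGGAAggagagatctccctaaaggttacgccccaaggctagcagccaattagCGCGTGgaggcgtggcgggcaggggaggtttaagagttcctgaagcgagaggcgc
*Lfng* held the RBPJ core on both strands, as TTCCCA and then TGGGAA, which point away from each other with 21 bases between them. The second started 108 bases before the RefSeq start. *Lfng* was the only one of 8 members with an entry in the RefSeq table to hold this core. Of all 32851 windows of this length 21.6% held it, and of windows with at least 60% G and C 15.9%. The class C letters stood upstream of 5 of the 8 members (*Dll1*, *Dll4*, *Jag1*, *Lfng* and *Notch2*), against 7.62% of all windows and 19.7% of windows with at least 60% G and C. A member counted if any of its windows held the letters, and *Dll1* had a further window without them. In *Jag1* the letters occurred on both strands, starting 249 and 171 bases before the RefSeq start, and in *Dll4* once, 195 bases before it. A match describes the letters only, and the motifs were picked after these sequences had been seen.

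0 of the 10 Notch genes passed an adjusted p of 0.05 in either direction between mutant and control pools, in limma over 17168 genes, of which 0.501% passed (0.186% higher and 0.315% lower in mutant pools). The lowest adjusted p among the 10 was 0.384, for *Notch2*. At an unadjusted p under 0.05 there were also 0 members, while 13.6% of all tested genes were below it. The edgeR quasi-likelihood test on the recovered reads called 0 of the 10, with 0 at an unadjusted p under 0.05, where 0.539% of genes passed the adjusted threshold (0.198% higher, 0.341% lower) and 14.9% the unadjusted one. Of the members, 4 had a higher and 6 a lower mean in mutant pools. Their median log2 fold change was -0.05, and that of all tested genes -0.00212. Fold changes are mutant against control on the log2(normalized count + 1) scale, which understates changes of low genes.

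**Figure D1:**
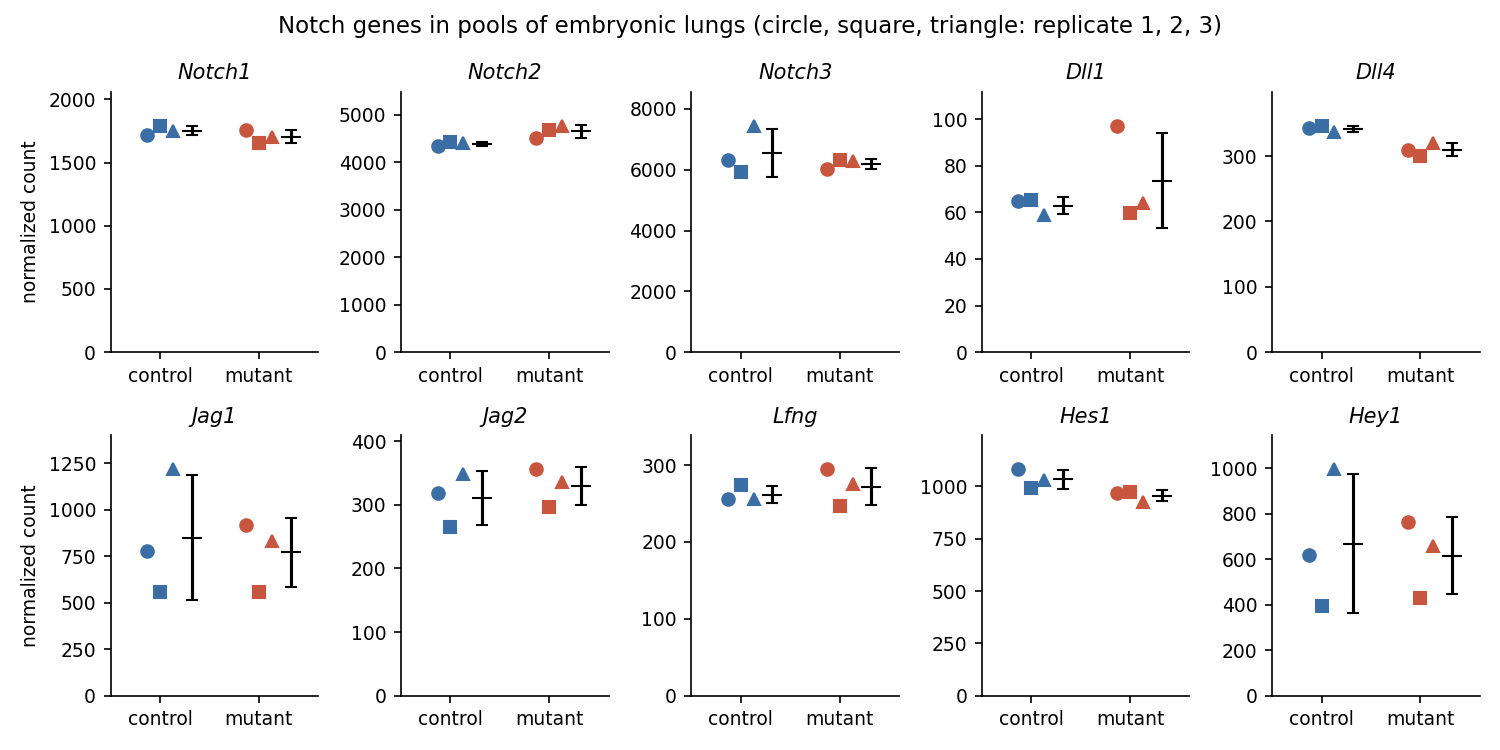
Normalized counts of the 10 Notch genes (vertical axes, each from 0) in 3 control pools (blue) and 3 mutant pools (red), with circle, square and triangle for replicates 1, 2 and 3 and black bars for mean ± SD. *Notch2* lies higher and *Dll4* and *Hes1* lie lower in every mutant pool than in any control pool, while *Jag1* and *Hey1* spread widely within both groups.

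Among the receptors, *Notch1*, which acts in endothelium and epithelium alike, varied least between groups. In the order of pools 1, 2 and 3, which is kept throughout, its normalized counts were 1716, 1790 and 1750 among controls against 1758, 1653 and 1704 among mutants, so the groups overlapped. The fold of mutant to control had a 95% interval of 0.907 to 1.04 (log2 fold change -0.04 ± 0.05 SE, adjusted p = 0.752 by limma). In GRCm38 it spans bases 26457903 to 26516663 of chromosome 2.

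*Notch2*, on chromosome 3 from 98013527 to 98150361, was at 4341, 4433 and 4400 among controls against 4509, 4676 and 4766 among mutants. Every mutant pool was above every control pool, but the difference was small, with a log2 fold change of 0.08 (± 0.04 SE, adjusted p = 0.384 by limma) and a 95% interval of the fold of 0.998 to 1.12. The log2 ratio of *Notch1* to *Notch2* within a library, which does not depend on its size factor, was -1.34, -1.31 and -1.33 among controls against -1.36, -1.50 and -1.48 among mutants. The ratio was lower in each mutant pool than in any control pool, by 0.12 on average (exact permutation test, p = 0.1, the smallest that 3 pools against 3 allow, and 0.25 adjusted over 5 ratios).

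*Notch3* is the receptor of pericytes and smooth muscle and lies on chromosome 17 from 32120820 to 32166852. Its counts were 6314, 5928 and 7438 among controls against 6014, 6307 and 6279 among mutants, with control pool 3 above all others. The log2 fold change was -0.07 (± 0.07 SE, adjusted p = 0.697 by limma) and became 0.02 without control pool 3 and 0.11 with the *Xist* covariate. By mean, 9 of 10 markers of smooth muscle and pericytes were higher in mutant pools, 0 with an adjusted p under 0.05 by limma. Their sum was 13727 to 13913 in control and 14909 to 16391 in mutant pools. The list was not uniform. *Pdgfrb*, *Rgs5*, *Cspg4*, *Abcc9* and *Tagln* were highest in control pool 3, as *Notch3* was. *Acta2*, *Myh11*, *Cnn1* and *Des* were lowest there, and *Kcnj8* was neither. The part of these markers' cells in the value of *Notch3* was not tested.

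**Figure D2:**
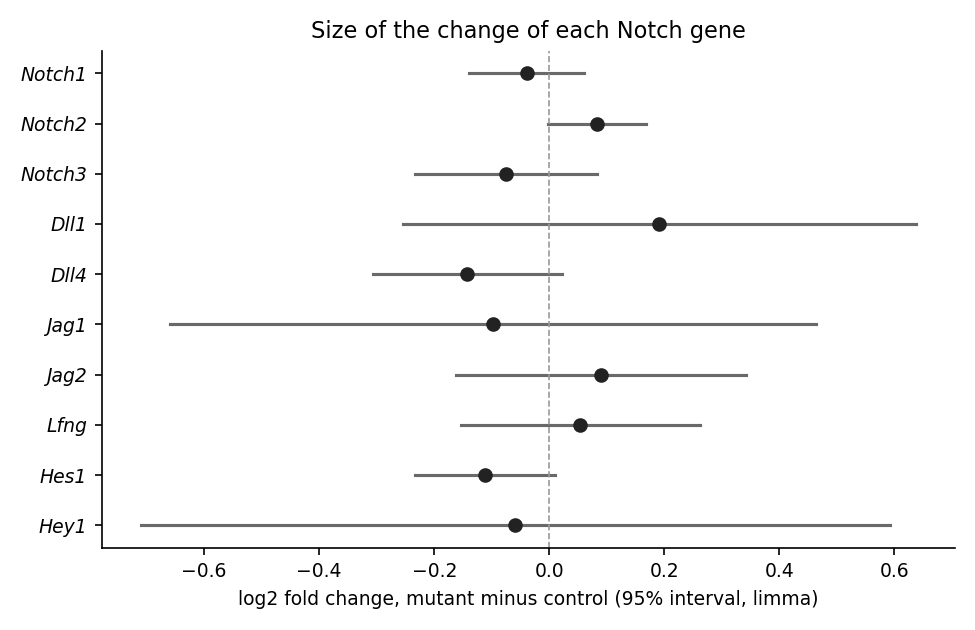
Log2 fold change of each Notch gene, mutant minus control (points), with its 95% interval from limma (lines) on the horizontal axis. All 10 intervals include 0, from the narrow one of *Notch2* to those of *Jag1* (-0.66 to 0.46) and *Hey1* (-0.71 to 0.59).

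The ligands differed in how tightly they were measured. *Dll4*, on chromosome 2 from 119325784 to 119335962, was at 343, 346 and 337 among controls against 310, 300.0 and 320 among mutants. No mutant pool reached the lowest control pool, with a log2 fold change of -0.14 (± 0.07 SE, adjusted p = 0.434 by limma) and a 95% interval of the fold of 0.808 to 1.02. Together with *Hes1* and *Notch2*, 3 of the 10 members had groups that did not overlap, as did 20.2% of all tested genes (9.77% higher and 10.5% lower in mutant pools), so the share among 10 genes lies near the background.

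Endothelial markers lay the other way from *Dll4*. Of 15 such markers, 14 had a higher mean in mutant pools, 8 at an unadjusted and 0 at an adjusted p under 0.05, with a median log2 fold change of 0.18. *Tie1*, a receptor of vessel remodeling, was at 2073 ± 181 in control and 2493 ± 16.4 in mutant pools (mean ± SD, n = 3, adjusted p = 0.0922 by limma), and *Cldn5*, a tight junction protein of endothelium, at 1057 ± 136 and 1283 ± 7.11 (adjusted p = 0.170). Relative to the mean log2 level of these 15 markers in the same library, *Dll4* was at -1.60, -1.68 and -1.53 among controls against -1.92, -1.92 and -1.88 among mutants. On this scale the mutant mean minus the control mean was -0.30, without overlap of the groups (by exact permutation p = 0.1, adjusted p = 0.2 over 20 comparisons of members with marker lists). This was not particular to *Dll4*: every other member except *Dll1* (0.03) also had a lower mutant mean on this scale. The groups did not overlap for *Notch1* (-0.20) and *Hes1* (-0.27) either. Most of these markers were higher in mutant pools, so a gene of unchanged level also falls on this scale. How many of all tested genes lack overlap on it was not computed. *Notch4*, the receptor most confined to endothelium, was at 679 ± 71.2 and 684 ± 43.3, with a log2 fold change of 0.01 (adjusted p = 0.960 by limma).

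**Figure D3:**
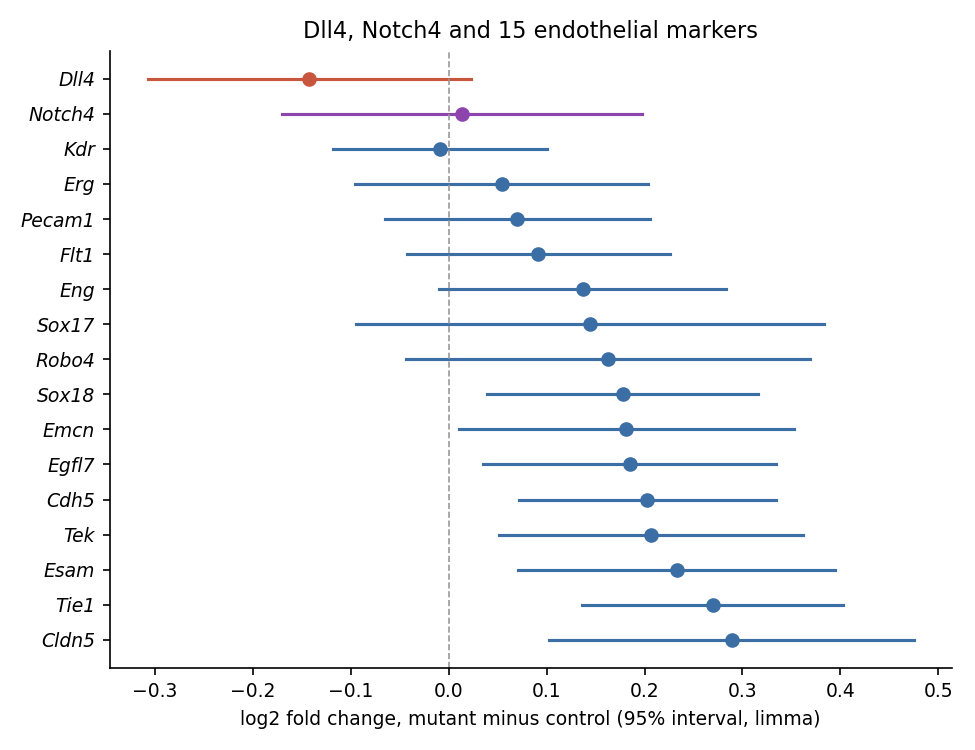
Log2 fold change, mutant minus control, with 95% intervals from limma (horizontal axis) for *Dll4* (red), *Notch4* (purple) and 15 endothelial markers (blue). *Dll4* sits at -0.14, below *Notch4* at 0.01 and below all 15 markers, of which *Kdr* alone has a mean change under 0.

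*Dll1*, a ligand of early progenitors and neuroendocrine cells and the least abundant member, was at 64.8, 65.1 and 58.6 among controls against 97.1, 59.8 and 63.8 among mutants. Mutant pool 1 stood above the other 5 pools, and without it the log2 fold change of 0.19 (± 0.20 SE, adjusted p = 0.727 by limma) became -0.02. With the *Xist* covariate it was -0.11. The log2 ratio of *Dll1* to *Dll4* was -2.43 ± 0.07 in control and -2.09 ± 0.37 in mutant pools (mean ± SD, n = 3), without overlap (exact permutation test, p = 0.1, 0.25 adjusted over 5 ratios), and its difference of 0.33 became 0.12 without mutant pool 1. The gene lies on chromosome 17 from 15367354 to 15376872.

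*Jag2*, a ligand known from epithelium, lies on chromosome 12 from 112907819 to 112929776. It was at 319, 264 and 348 among controls against 356, 297 and 336 among mutants. The groups overlapped, with a log2 fold change of 0.09 (± 0.11 SE, adjusted p = 0.773 by limma) that became -0.02 without control pool 2.

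*Jag1*, a ligand of mesenchyme, smooth muscle and arteries on chromosome 2 from 137081456 to 137116644, had counts of 775, 555 and 1216 among controls against 919, 559 and 831 among mutants. Its highest pool had 2.19 times the count of its lowest, and both of these were control pools. The log2 fold change was -0.10 ± 0.25 (SE, adjusted p = 0.902 by limma), and it became 0.20 without control pool 3, 0.12 without mutant pool 2 and 0.25 with the *Xist* covariate. Of 12 mesenchymal markers, 12 had a higher mutant mean, but 4 had an adjusted p under 0.05 by limma. Their part in the value of *Jag1* was not tested. A change of the group mean between 0.633-fold and 1.38-fold lies within the 95% interval.

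*Hey1*, a target gene whose product represses transcription, lies on chromosome 3 from 8663359 to 8667256. Its counts were 618, 394 and 994 among controls against 761, 428 and 656 among mutants, the same order of the 6 pools as for *Jag1*. The log2 fold change was -0.06 ± 0.29 (SE, adjusted p = 0.950 by limma), and it became 0.28 without control pool 3, 0.18 without mutant pool 2 and 0.36 with the *Xist* covariate. The highest pool had 2.53 times the count of the lowest. Of the 11458 genes with a mean normalized count of at least 100, 0.428% had a larger spread within groups than *Hey1* (SD 0.56 on the log2 scale) and 0.663% than *Jag1* (SD 0.48), while 94.1% had a larger one than *Notch2* (SD 0.03). The median of these genes was 0.08.

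Over the 6 pools, the log2 values of *Jag1* and *Hey1* had a Pearson's r of 0.996 (exact permutation test, p = 0.00139, adjusted p = 0.0625 over the 45 pairs of members) and a Spearman's rho of 1 (exact p = 0.00278, adjusted p = 0.125). With control pools 2 and 3 left out, r was 0.998. The log2 ratio of *Hey1* to *Jag1* was -0.33, -0.49 and -0.29 among controls against -0.27, -0.38 and -0.34 among mutants, with means of -0.37 and -0.33 (exact permutation test, p = 0.7). *Jag2* followed the pattern in part, with r = 0.912 against *Hey1* (exact permutation p = 0.0111, adjusted p = 0.229) and r = 0.875 against *Jag1* (exact permutation p = 0.0208, adjusted p = 0.234).

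**Figure D4:**
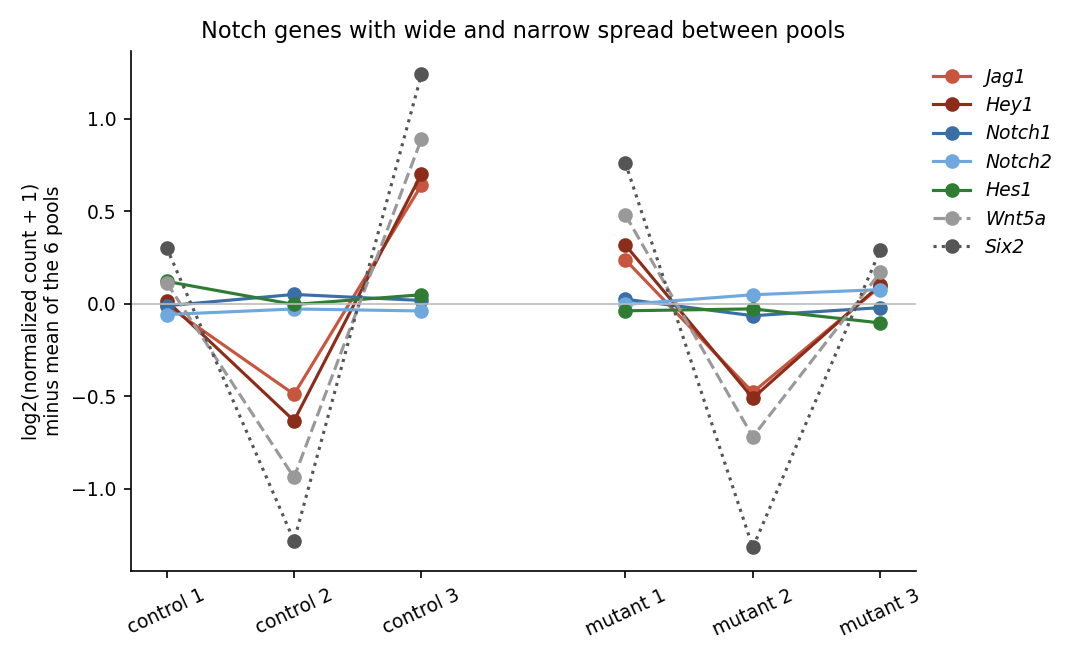
Log2(normalized count + 1) minus the mean of the 6 pools (vertical axis) for 5 Notch genes and for *Wnt5a* and *Six2* in each pool; lines join pools of a group only to guide the eye. *Jag1* and *Hey1* are high in control 3 and low in control 2 and mutant 2, as are *Wnt5a* and *Six2*, while *Notch1*, *Notch2* and *Hes1* stay near 0.

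Other genes varied between pools in the same way and are named here after their values had been seen. *Wnt5a*, a Wnt ligand of distal mesenchyme, was at 916, 441 and 1570 among controls against 1181, 514 and 952 among mutants (r = 0.996 with *Hey1*). *Six2*, a transcription factor of several embryonic mesenchymes, was at 340, 113 and 651 among controls against 467, 110 and 337 among mutants. *Trp63*, the transcription factor of basal cells in the trachea and of stratified epithelia, was at 35.4, 7.23 and 89.5 among controls against 32.7, 9.80 and 30.4 among mutants. *Cldn11*, *Efemp1* and *Spsb1* were with *Jag1* and *Wnt5a* the 5 genes most like *Hey1* (r from 0.994 to 0.998), and *Col12a1*, *Hey1*, *Cldn11*, *Cdh3* and *Lpar1* those most like *Jag1* (r from 0.993 to 0.996, among 11458 genes). The part of tissue makeup in the spread of *Jag1* and *Hey1* was not tested.

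*Hes1*, the best known target of Notch signaling in the lung, where it holds back neuroendocrine fate, lies on chromosome 16 from 30064384 to 30067796. It was at 1081, 992 and 1029 among controls against 969, 976 and 926 among mutants, with every mutant pool below every control pool. The log2 fold change was -0.11 (± 0.05 SE, adjusted p = 0.402 by limma) and the 95% interval of the fold 0.851 to 1.01. In contrast to *Hey1*, *Hes1* differed little between pools of a group (SD 0.05 on the log2 scale), and the log2 ratio of *Hes1* to *Hey1* ranged from 0.05 to 1.33 within control pools alone. Relative to the mean log2 level of 20 epithelial markers, *Hes1* differed by 0.21 (mutant minus control), and relative to the endothelial markers by -0.27, each without overlap (exact permutation test, p = 0.1, adjusted p = 0.2). Relative to the epithelial markers, all 10 Notch genes had a higher mutant mean, by 0.18 (*Dll4*) to 0.51 (*Dll1*), 7 of them without overlap. Most of these markers were lower in mutant pools, so a gene of unchanged level also rises on this scale. The share of all genes without overlap on either marker scale was not computed. The differences of *Jag1* and *Hey1* turned to -0.10 and -0.12 without control pool 2. The 5 genes whose log2 values were most like those of *Hes1* over the 6 pools were *Fastkd3*, *Sass6*, *Tars2*, *Ccdc57* and *Fkbp4* (r from 0.972 to 0.991), and for *Notch2* they were *Add1*, *Map1a*, *Plekha2*, *Mageh1* and *Frs3* (r from 0.977 to 0.992).

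*Lfng* transfers a sugar onto the receptor and by this favors its response to Delta ligands. The gene lies on chromosome 5 from 140607320 to 140615545, and its counts were 255, 274 and 255 among controls against 294, 247 and 275 among mutants. The groups overlapped, with a log2 fold change of 0.05 (± 0.09 SE, adjusted p = 0.851 by limma) that became -0.00445 without mutant pool 1 and -0.089 with the *Xist* covariate.

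Per kilobase of merged exons (GENCODE M21), the control level of the receptors was highest for *Notch3* at 811 ± 97.0 normalized counts per kilobase (mean ± SD, n = 3), followed by *Notch2* at 407 ± 4.30 and *Notch1* at 123 ± 2.62, and the ranges of these 3 did not overlap. Among ligands the order per kilobase was *Jag1* at 146 ± 57.7, *Dll4* at 88.8 ± 1.20, *Jag2* at 44.6 ± 6.09 and *Dll1* at 14.9 ± 0.864. *Jag1* and *Dll4* lay within 1 SD of *Jag1* of each other. *Hes1* was at 508 ± 22.1 and *Hey1* at 205 ± 92.9 per kilobase, and *Lfng* at 104 ± 4.23. In mutant pools the order was the same within receptors, ligands and targets, with *Notch3* at 766, *Notch2* at 431 ± 12.1 and *Dll1* at 17.4 ± 4.85 per kilobase. The exon lengths cover all annotated isoforms, so genes with many isoforms appear lower on this scale.

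Of 83 other genes of the pathway, 81 were tested and 0 passed an adjusted p of 0.05 (limma, lowest adjusted p = 0.124, against 0.501% of all tested genes). By edgeR 0 of 80 passed, with 5 at an unadjusted p under 0.05. At an unadjusted p under 0.05 limma had 5 of the 81 higher and 1 lower, where 13.6% of all tested genes were below that value. Their median log2 fold change was 0.03.

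Among the other receptor and ligands, 1 of 8 tested genes was higher at an unadjusted p under 0.05. This was *Dlk2*, a non-canonical ligand at 6.40 ± 2.71 in control and 13.6 ± 2.81 in mutant pools (mean ± SD, n = 3, log2 fold change 1.02, adjusted p = 0.257 by limma), a level of few reads. *Dlk1*, an imprinted and far more abundant relative, was at 10258, 12745 and 6999 among controls against 11403, 13638 and 12285 among mutants, with a log2 fold change of 0.35 (adjusted p = 0.394 by limma) that became 0.12 without control pool 3. *Cntn1*, a contactin reported as a ligand, was at 29.3 ± 6.53 and 40.4 ± 5.40 (log2 fold change 0.46, adjusted p = 0.413).

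Among 10 other targets tested, 2 were higher and 0 lower at an unadjusted p under 0.05. *Dtx1*, which encodes a ubiquitin ligase that binds the receptor and is itself a target, was at 169, 185 and 183 among controls against 255, 219 and 240 among mutants. Every mutant pool lay above every control pool, with a log2 fold change of 0.41 (± 0.10 SE, adjusted p = 0.124 by limma), the lowest p of all pathway genes examined. *Hes7*, the oscillator of somite formation, was at 8.84, 9.30 and 14.9 among controls against 15.3, 18.6 and 22.6 among mutants (adjusted p = 0.333). *Nrarp*, a feedback inhibitor that follows Notch activity in many tissues, was at 384 ± 17.3 in control and 422 ± 61.5 in mutant pools (log2 fold change 0.13, adjusted p = 0.640), and *Heyl* at 664 ± 130 and 734 ± 64.4 (adjusted p = 0.622).

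**Figure D5:**
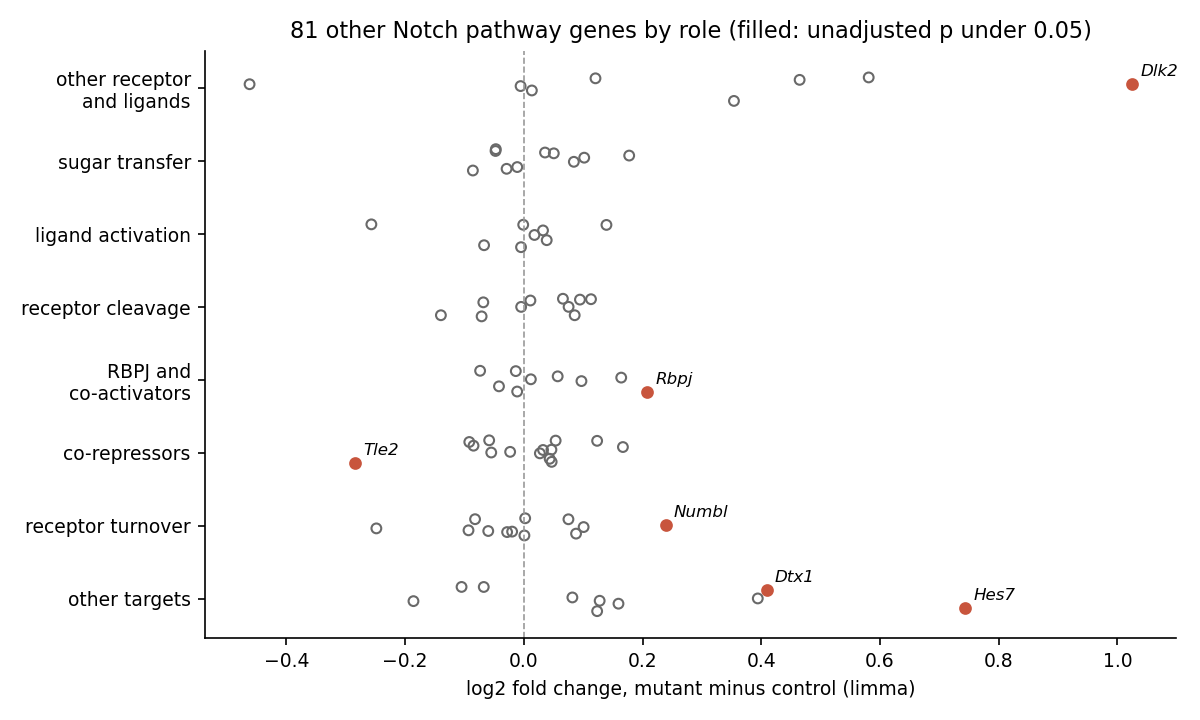
Log2 fold change, mutant minus control (horizontal axis, limma), of 81 other Notch pathway genes, 1 point each, in rows by role; filled points have an unadjusted p under 0.05 and 0 of the 81 have an adjusted p under 0.05. The lists scatter around 0, with *Dlk2* at 1.02 and *Hes7* at 0.74 farthest out, both genes of low counts.

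In the nucleus, *Rbpj*, the DNA-binding partner of the cut receptor, was at 1664, 1570 and 1946 among controls against 2199, 1772 and 2008 among mutants. The groups overlapped, and the log2 fold change was 0.21 (± 0.09 SE, adjusted p = 0.354 by limma). Without control pool 3 it was 0.30 with an adjusted p of 0.0452, while 468 genes in all passed in that fit. Of 9 co-activator genes including *Rbpj*, 1 had an unadjusted p under 0.05, with *Kat2a* and *Kat2b* next at adjusted p = 0.485 and 0.619. Of 14 co-repressor genes, *Tle2*, a Groucho protein recruited by HES factors, was the 1 below that value, at 415 ± 38.4 in control and 340 ± 14.5 in mutant pools (log2 fold change -0.28, adjusted p = 0.191 by limma). The histone demethylase gene *Kdm1a* was at 3778 ± 143 and 3544 ± 109 (adjusted p = 0.394) and the RBPJ-binding co-repressor gene *Cir1* at 330.0 ± 30.8 and 369.5 ± 6.18 (adjusted p = 0.429), with no overlap for either.

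Genes that handle the receptors and ligands came last. *Numbl*, a relative of the Notch inhibitor Numb, was at 1908 ± 142 and 2251 ± 153 (log2 fold change 0.24, adjusted p = 0.152 by limma) and was the only one of 12 genes of receptor turnover at an unadjusted p under 0.05. 0 of 10 sugar transferases, 0 of 8 genes of ligand activation and 0 of 10 protease genes were under it in limma, where 13.6% of all genes were. *Adam10*, the protease of the first ligand-induced cut, was at 4242 ± 45.0 and 4470 ± 61.8 (log2 fold change 0.08, adjusted p = 0.399), and the fringe enzyme *Mfng* at 488 ± 75.3 and 548 ± 21.7 (0.18, adjusted p = 0.482). *Mib2*, a ubiquitin ligase of ligands, was at 706 ± 47.0 and 777 ± 41.1 (0.14, adjusted p = 0.403). The other genes of lowest p in these lists also missed the threshold, with adjusted p = 0.488 for *Gxylt1*, 0.509 for *Kdelc1* (*Poglut2*), 0.436 for *Neurl1b*, 0.759 for *Epn1*, 0.504 for *Aph1a*, 0.411 for *Itch* and 0.499 for *Dtx2*.

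Airway fate genes, some of them held back or promoted by Notch signaling, gave 0 of 10 tested genes at an adjusted p under 0.05 in limma. *Sox2*, of the proximal airway, was the 1 gene at an unadjusted p under 0.05, with a log2 fold change of -0.47 (adjusted p = 0.124). It was at 462, 423 and 553 among controls against 390, 304 and 341 among mutants, every mutant pool below every control pool. *Foxj1*, of ciliated cells, was at 38.7 ± 7.78 and 29.9 ± 2.64, also without overlap (log2 fold change -0.35, adjusted p = 0.520). Of the 10 genes these 2 were lower without overlap, as were 10.5% of all tested genes. *Neurod1* was at 1.96, 2.07 and 0.994 among controls against 18.4, 0 and 9.82 among mutants, at few reads in each (adjusted p = 0.629).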

How the data were processed

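Whole lungs of mouse embryos (E11.5dpc) were pooled by genotype and sequenced on the BGISEQ-500 platform. The submitters' processing notes list Trim Galore, HISAT2, featureCounts and DESeq2 with build mm10. Versions and filters are not given in the sources used here. The authors deposited 1 table with signal values per library, which are normalized counts (reads divided by a size factor). Columns of the authors' own comparison that were deposited with it (log2 fold changes with errors, a score and p-values) were not used.

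In each of the 6 libraries 100% of values were whole multiples of 1 step (tolerance 0.05 of a read), which gave back the reads. The step of control pool 3 is close to 1. The test set in the design, limma 3.58.1 in R 4.3.3 (eBayes with trend) on log2(normalized count + 1), was run on genes that reached 1 in 3 or more libraries, adjusted over all genes (Benjamini-Hochberg), with a two-sided threshold of 0.05. edgeR 4.0.16 (quasi-likelihood, TMM, filterByExpr) was run on the recovered reads as an alternative. Scripts were tested on simulated data. Single values were compared by two-sided exact permutation tests over pools. Controls were littermates, and per the study's methods mutants of different litters were combined for statistics. Which litters went into which pool is not given in the sources used here, so p-values measure the spread between these pools.

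Members and gene lists were chosen with earlier results of these data known. Named are all 10 members, up to 3 genes of lowest p per role list, and the 5 genes most alike to *Notch2* (the member of lowest p) and *Hes1*. *Rptor* and up to 2 markers per list were named too. *Notch4*, *Nrarp*, *Kdr*, *Nkx2-1*, *Krt19*, the called mesenchymal markers and the genes beside *Jag1* and *Hey1* were picked after their values were seen. The markers set beside *Notch3* were also named after their values were seen. Older symbols (*Nov*, *Kdelc1*, *Kdelc2*, *AI480653*, *Mcin*) were matched through RefSeq. *Hes2*, *Hes3*, *Scgb1a1* and *Scgb3a2* were below the filter. Upstream sequences came from RefSeq (GRCm38.p6), with 8 of 10 members matched and no entry for *Hes1* and *Hey1*. Positions are of GENCODE M21 (GRCm38). Some genes of the lists are not reported here. Alternatives are named in the closing part.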

Additional observations from a re-analysis of the deposited data

How the results depend on the processing

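The count of Notch genes with an adjusted p under 0.05 was 0 under every alternative run: limma without trend, upper-quartile scaling, a minimum of 10 per library, all genes unfiltered, 0.1 as pseudocount, the replicate block, edgeR, 6 fits without 1 pool, and, chosen after seeing the data, the log2 *Xist* value as a covariate. *Notch1*, *Notch2*, *Dll4* and *Hes1* had the same sign in all 14. With the *Xist* covariate the log2 fold change turned to 0.11 for *Notch3*, -0.11 for *Dll1*, 0.25 for *Jag1*, 0.36 for *Hey1*, -0.089 for *Lfng*, -0.081 for *Mfng* and -0.50 for *Neurod1*, and the cause was not tested. Without 1 pool, the range was -0.14 to 0.019 for *Notch3*, -0.023 to 0.32 for *Dll1*, -0.37 to 0.20 for *Jag1*, -0.020 to 0.18 for *Jag2*, -0.39 to 0.28 for *Hey1* and -0.00445 to 0.12 for *Lfng*.

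Over all genes, limma without trend called 8 in place of 86, and fits without 1 pool called 1 to 468 (0 to 2 of the other pathway genes). Without 1 pool, the difference in the log2 ratio was -0.35 to 0.023 for *Jag1* to *Jag2*, -0.39 to 0.25 for *Hes1* to *Hey1* and -0.023 to 0.078 for *Hey1* to *Jag1*. Relative to epithelial markers it was -0.10 to 0.58 for *Jag1* and -0.12 to 0.66 for *Hey1*, and relative to endothelial markers -0.18 to 0.15 for *Dll1*, -0.57 to 0.084 for *Jag1*, -0.23 to 0.062 for *Jag2*, -0.59 to 0.16 for *Hey1* and -0.34 to -0.27 for *Dll4*.

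Whether the replicate numbers pair the pools is not known. Deviations of same-numbered pools from their group means correlated at -0.03, 0.20 and 0.08 across 11458 genes. Pools of unlike number correlated at -0.17 to 0.13. Without the litters of each pool, these values cannot settle the pairing. The replicate block gave 71 calls over all genes and 0 among the members. With 3 pools a group, differences of the size seen for *Dll4* and *Hes1* were not told apart from 0 at the adjusted threshold.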
